A study of Mus musculus with 27 samples.

Results

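Interleukin receptor chains are the proteins with which a cell binds an interleukin and passes its signal inwards. They were taken as every gene whose symbol is Il, a number and then r or st, without the antagonist Il1rn and without pseudogenes, which gave 37 of the 21666 genes named by a single symbol on the arrays. The rule reads symbols and no measured value. Each gene is represented by 1 row of the table, the row of highest mean, and only Il1rap had more than 1 row. The common gamma chain Il2rg, the IL-33 receptor Il1rl1 and the IL-11 receptor Il11ra1 are not analysed here.

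An interleukin receptor is usually built from a chain that recognises the ligand and a chain that is shared within a family and carries the signal. The common gamma chain, the common beta chain and gp130 signal through Janus kinases and STAT proteins, IL-1 receptor chains signal through MyD88 and IRAK kinases, and IL-17 receptor chains through the adaptor encoded by Traf3ip2. Macrophages use these chains to answer IL-4, IL-6, IL-10, IL-1 and their relatives, and microglia, the resident macrophages of the brain, are held in check by IL-10 and pushed into inflammatory states by IL-1.

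The study emptied the microglial niche of C57BL/6 mice and asked which cells refilled it. Log2 signals came from 27 Affymetrix Mouse Gene 2.1 ST arrays in 9 groups, each array carrying RNA of sorted cells pooled from 2 to 5 mice. Naive microglia (5 arrays) were CD11b+CX3CR1hi brain cells of untreated mice or of Cx3cr1CreER/+ controls given tamoxifen (TAM), and the labels do not say which array is which. F4/80low and F4/80hi cells came from the same brains of Cx3cr1CreER/+R26DTA/+ mice, in which TAM given on 3 consecutive days makes cells with an active Cx3cr1 promoter produce diphtheria toxin A, and were sorted as CD11b+CX3CR1hi 4 weeks later (3 arrays of F4/80low, 2 of F4/80hi) or 12 weeks later (3 arrays of each). DTR microglia (2 arrays) were sorted 2 weeks after diphtheria toxin from TAM-treated Cx3cr1CreER/+R26DTR/+ mice, whose cells carry the toxin's receptor. Their label names F4/80low cells, while the stated gate was CD11b+CX3CR1hi. The reference cells were Ly6Chi monocytes of bone marrow (5 arrays, magnetic beads), CD45+F4/80hi red pulp macrophages of spleen (2 arrays) and CX3CR1hiCD64+MHCII+ intestinal macrophages (2 arrays). The depleted brain groups all carried 1 Cx3cr1CreER allele in place of a Cx3cr1 copy, and the toxin could reach any cell that uses this promoter, not microglia alone. Of the 5 arrays of naive microglia and the 5 of monocytes, 3 were biological and 2 technical, which the labels do not tell apart, and tests on these groups may overstate their certainty.

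Array medians lay between 5.06 and 5.23 on the log2 scale, and arrays of a group correlated at a mean of 0.969 to 0.986. The labels were checked against defining markers: 5 of 5 microglial, 6 of 6 monocyte and 6 of 6 red pulp markers were highest in their own cells among the 4 reference groups, but only 3 of 6 intestinal macrophage markers were, the exceptions being Cd209a, Cd163 and Cd4. Differences between groups are log2 differences from a single limma model of all arrays with a batch term. A chain was called changed at an adjusted p under 0.05, over all 32245 rows, together with a change above 2-fold. As a guide to background, the 95th percentile of 1091 olfactory receptor rows was 5.38. A signal below it was treated as not told apart from background, and no level of a chain was set against that of another chain.

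Measured in this way, 14 of the 37 chains lay above background in all 9 groups: Il1rap, Il1rl2, Il4ra, Il15ra, Il21r, Il3ra, Il13ra1, Il6ra, Il6st, Il27ra, Il12rb2, Il10ra, Il10rb and Il17ra. A further 10 lay above it in no group, among them both IL-18 receptor chains (Il18r1, Il18rap), the neuronal Il1rapl1 and Il1rapl2, the IL-5 receptor Il5ra, the decoy Il13ra2, and Il17rb and Il17re. The other 13 were above it in some groups. In the brain groups, 15 chains were above background in all 6, the 14 above and Il7r, and 19 in none. Since arrays give a sum over the sorted cells, fewer cells that carry a transcript and less of it per cell cannot be told apart.

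The promoters of 4 chains are shown as examples of different patterns over the groups: Il21r and Il7r were high in microglia and low in monocytes, Il31ra was above background in monocytes only, and Il1r2 was raised in intestinal macrophages and in part of the 4-week brain arrays. Each is the stretch of 250 bases before a start annotated in RefSeq (GRCm38.p6), 5′ to 3′ on the gene's own strand, with motif matches in capitals. These windows are not wholly upstream of the annotated gene spans. The Il1r2 window lies inside its gene, which begins at position 40084692. Most of the Il21r window also lies inside its gene, which begins at position 125603252. The windows of Il7r and Il31ra overlap the first bases of their genes. The windows are chr7:125603179-125603428 (plus strand) for Il21r, chr15:9529877-9530126 (minus strand) for Il7r, chr13:112580663-112580912 (minus strand) for Il31ra and chr1:40085843-40086092 (plus strand) for Il1r2.
Il21r: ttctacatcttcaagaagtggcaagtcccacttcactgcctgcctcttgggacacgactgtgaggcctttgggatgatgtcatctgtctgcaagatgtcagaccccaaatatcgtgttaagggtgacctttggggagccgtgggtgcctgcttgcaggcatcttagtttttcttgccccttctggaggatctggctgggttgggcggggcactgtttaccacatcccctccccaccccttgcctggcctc
Il7r: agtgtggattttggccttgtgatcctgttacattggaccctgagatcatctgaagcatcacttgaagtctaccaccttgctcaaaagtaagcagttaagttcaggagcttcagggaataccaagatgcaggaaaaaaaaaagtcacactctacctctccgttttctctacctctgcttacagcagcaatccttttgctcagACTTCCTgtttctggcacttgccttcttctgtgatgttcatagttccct
Il31ra: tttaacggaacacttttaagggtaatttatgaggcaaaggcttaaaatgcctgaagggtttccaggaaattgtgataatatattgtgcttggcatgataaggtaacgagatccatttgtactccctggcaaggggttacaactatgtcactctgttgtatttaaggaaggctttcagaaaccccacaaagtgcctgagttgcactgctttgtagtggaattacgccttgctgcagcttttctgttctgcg
Il1r2: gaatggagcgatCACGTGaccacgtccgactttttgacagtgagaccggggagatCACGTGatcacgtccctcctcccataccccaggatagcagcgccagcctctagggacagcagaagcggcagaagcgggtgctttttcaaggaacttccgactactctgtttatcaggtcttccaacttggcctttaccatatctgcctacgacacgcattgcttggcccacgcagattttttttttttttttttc
On both strands, 3 motifs were searched for: the core bound by ETS factors such as PU.1 (AGGAAGT), an AP-1 site (TGANTCA) and an E-box (CACGTG). No motif overlapped another in these windows. The Il7r window held 1 ETS core, read on the opposite strand and so printed as ACTTCCT, the Il1r2 window held 2 E-boxes, and the windows of Il21r and Il31ra held no match to these letters. Among 32851 promoter windows of this length, 7.69% held the ETS core, 6.75% the AP-1 site and 6.02% the E-box. RefSeq promoters were matched for 30 of the 37 chains, with 34 windows in all. The ETS core was present in 6 of the 34 windows (Il17rc, Il18rap, Il2ra, Il3ra, Il6ra, Il7r), the AP-1 site in 6 (Il13ra2, Il15ra, Il17rb, Il20ra, Il22ra1, Il5ra) and the E-box in 2 (Il1r2, Il6ra).

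Several chains are neighbours in the annotation. Il4ra lies directly beside Il21r, Il6st beside Il31ra, Il1r1 beside Il1rl2, and Il18r1 beside Il18rap, with no annotated gene between them. Il6st was above background in all groups and its neighbour Il31ra in monocytes only, Il4ra and Il21r were both lowest in monocytes, and Il18r1 and Il18rap were both below background throughout.

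Against naive microglia the repopulated brain cells differed in few chains. F4/80hi macrophages at 12 weeks had 1 called chain of 37, Il6st, which was lower, where 1.65% of all rows were called lower. F4/80low microglia at 12 weeks had 0 (limma; 1 chain had an unadjusted p under 0.05), where 0.115% of all rows were called. At 4 weeks Il1r2 was the called chain in both populations, higher in each, where 1.53% of all rows were called higher in F4/80hi macrophages and 0.735% in F4/80low microglia. DTR microglia had 0 called chains (limma; 3 with an unadjusted p under 0.05), against 0.754% of all rows. A single called chain is 2.70% of the 37, and the median differences were small: -0.06 for the 37 chains and 0.00 for all rows in F4/80hi macrophages at 12 weeks, 0.01 and -0.03 in F4/80low microglia at 12 weeks, and 0.10 and 0.01 in DTR microglia. These comparisons share the naive arrays.

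**Figure D1:**
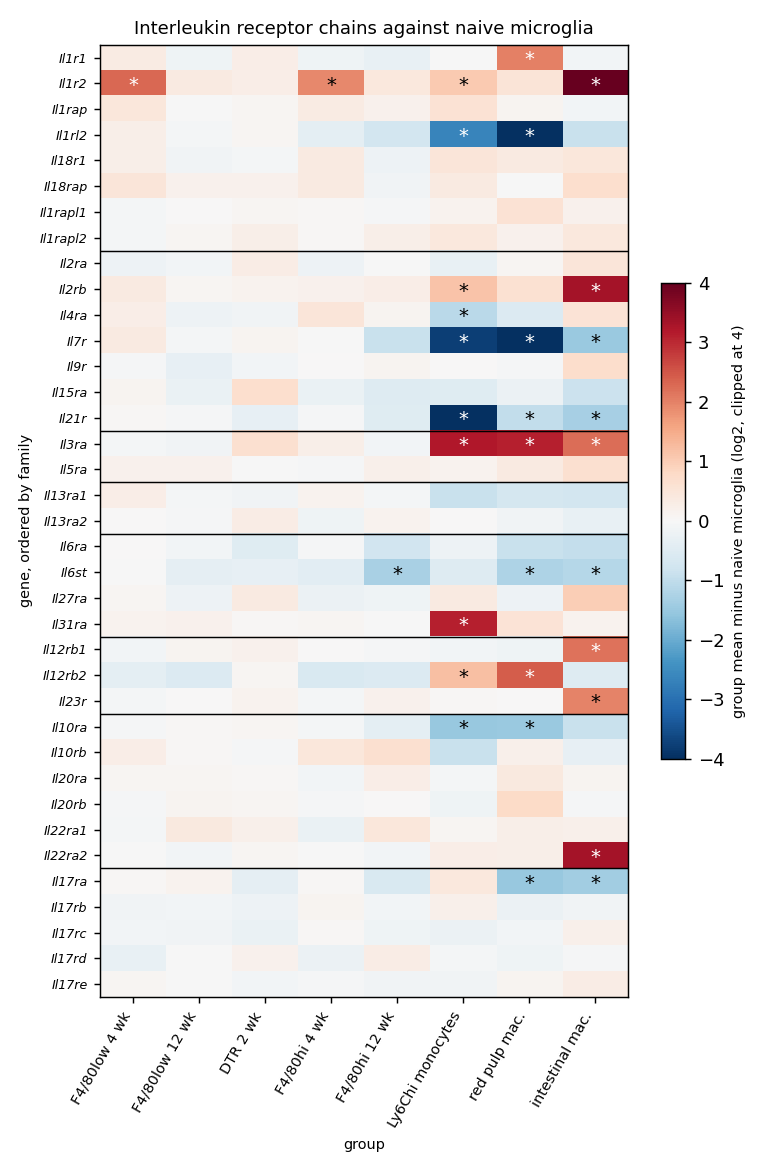
Each row is 1 of the 37 chains, ordered by family with lines between families, and each column a group. Colour is the group mean minus that of naive microglia (log2, clipped at 4), and a star marks a difference called in the limma model. The 5 repopulated brain columns hold 3 stars, at Il6st and Il1r2, and the 3 columns of cells from outside the brain hold all other stars.

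In the IL-6 and gp130 family, Il6st was the chain called in F4/80hi macrophages at 12 weeks. It encodes gp130, the signal-carrying chain shared by the receptors for IL-6, leukaemia inhibitory factor and related cytokines. The naive arrays read 11.78, 11.87, 12.22, 11.91 and 11.67. The F4/80hi arrays read 10.36, 10.81 and 10.61 at 12 weeks and 11.39 and 11.57 at 4 weeks. The F4/80low arrays read 11.78, 11.15 and 11.62 at 12 weeks and 11.63, 12.04 and 11.98 at 4 weeks, and the DTR arrays 11.86 and 11.26. All 3 F4/80hi arrays at 12 weeks lay below every other brain array, and those at 4 weeks lay just under the naive range. At 12 weeks Il6st fell by 1.23 (SE 0.18, 95% interval -1.60 to -0.85, limma adjusted p = 4.62e-05), and this call was kept under each alternative run, with values from -1.05 to -1.34 and -1.23 in the arrays of batch 1 alone. Against F4/80low microglia of the same brains the difference was -0.92 (SE 0.18, adjusted p = 1.47e-03), which falls short of 2-fold. It passed 2-fold without F4/80hi replicate 2 (-1.03) or without F4/80low replicate 2 (-1.11).

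At 4 weeks the F4/80hi difference of Il6st from naive microglia was -0.45 (SE 0.19, limma adjusted p = 0.286). The change between 4 and 12 weeks within F4/80hi macrophages was -0.78 (SE 0.25, adjusted p = 0.277), with a batch term that rests on naive microglia and monocytes because each of these groups lies in a single batch. The test of whether the gap between F4/80hi and F4/80low cells differed between the time points gave -0.52 (SE 0.27, adjusted p = 0.763), so a difference in time was not shown. The references read 11.40, 11.23, 11.34, 11.48 and 11.38 in monocytes, 10.66 and 10.65 in red pulp macrophages and 10.71 and 10.80 in intestinal macrophages. At 12 weeks the F4/80hi arrays covered the range of the macrophages of spleen and gut and lay below monocytes.

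Il6ra, the chain that binds IL-6 before gp130 joins it, moved the same way by less. Its F4/80hi arrays at 12 weeks read 11.52, 10.90 and 11.37, below the lowest naive array at 11.76 and below the lowest F4/80low array of that time at 11.81. The differences were -0.70 from naive microglia (SE 0.18, limma adjusted p = 0.0148) and -0.67 from F4/80low microglia (SE 0.18, adjusted p = 0.0220), neither reaching 2-fold. DTR microglia, at 11.71 and 11.40, also lay below the naive range, with a difference of -0.41 (adjusted p = 0.601). Il27ra, which pairs with gp130 to bind IL-27, had group means between 5.41 and 6.02 in the brain, close to background, and a difference of -0.13 at 12 weeks (adjusted p = 0.870).

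In F4/80hi macrophages at 12 weeks 3 chains passed the adjusted p against naive microglia whatever the size, and 6 did against F4/80low microglia, none of which reached 2-fold where 2.51% of all rows were called. Besides Il6st and Il6ra, Il10rb passed in both comparisons and was higher. Il10rb is the signal chain shared by the receptors for IL-10, IL-22 and interferon lambda. Its F4/80hi arrays read 12.19, 12.60 and 12.20 at 12 weeks and 12.03 and 12.27 at 4 weeks, all above the 5 naive arrays (11.51 to 11.84). The differences at 12 weeks were 0.70 from naive (SE 0.14, limma adjusted p = 1.38e-03) and 0.59 from F4/80low microglia (SE 0.14, adjusted p = 7.12e-03). At 4 weeks the F4/80hi difference from naive was 0.41 (adjusted p = 0.152). The F4/80low arrays of that time, at 12.02, 11.90 and 11.96, also all lay above the naive arrays (difference 0.22, limma adjusted p = 0.601). The F4/80low arrays at 12 weeks, at 11.93, 11.59 and 11.70, overlapped the naive arrays.

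The remaining 3 were lower in F4/80hi than in F4/80low cells at 12 weeks. Il7r, the IL-7 receptor, differed by -0.81 (SE 0.23, limma adjusted p = 0.0385). Il1rl2, the receptor for IL-36, differed by -0.65 (SE 0.19, adjusted p = 0.0423). Il17ra, the chain common to IL-17 receptors, differed by -0.74 (SE 0.21, adjusted p = 0.0310). In each the arrays of the populations did not overlap, and none was called against naive microglia, where the adjusted p was 0.108 for Il7r, 0.0550 for Il1rl2 and 0.198 for Il17ra. At 4 weeks no chain passed between F4/80hi and F4/80low cells (limma; 2 with an unadjusted p under 0.05, Il1rl2 and Il1r1, where 0.440% of all rows were called). No chain passed the test of a different gap at 12 and 4 weeks either (limma, lowest adjusted p 0.620; 2 with an unadjusted p under 0.05, Il17ra and Il6ra; 0.118% of all rows called).

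**Figure D2:**
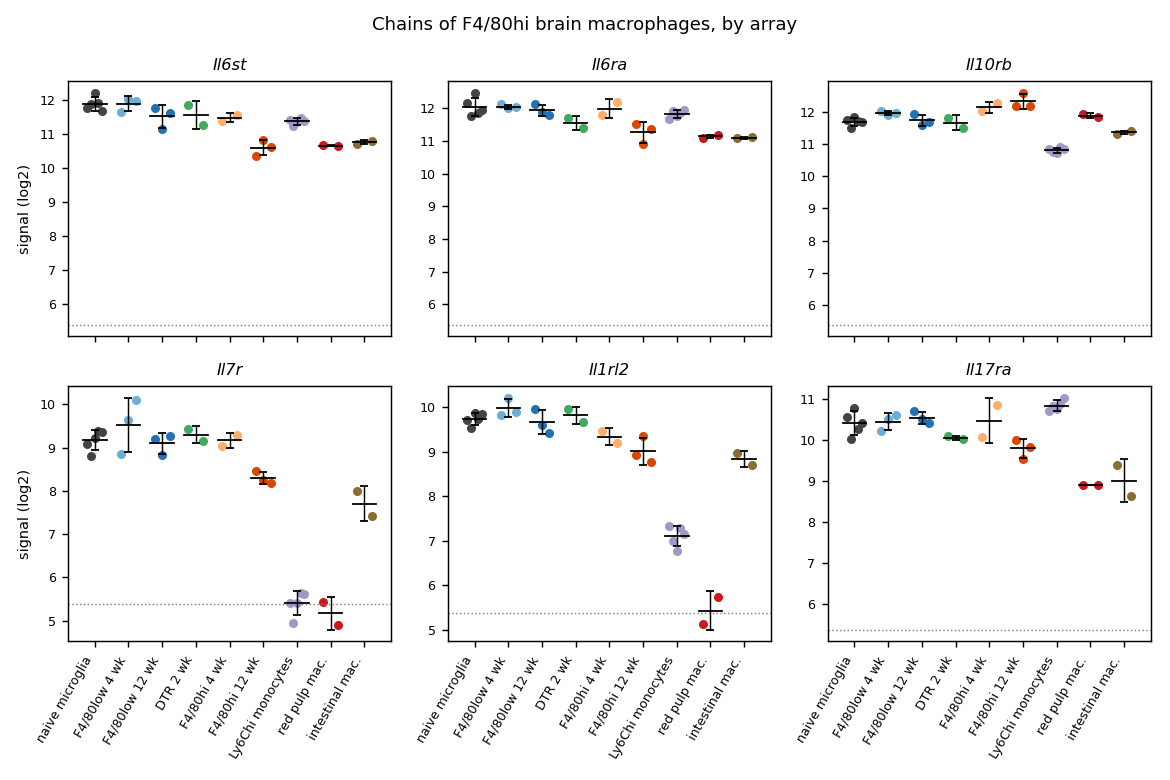
Points are single arrays of 6 chains (y axis, log2 signal) in the 9 groups (x axis), black bars are group means with SD and the dotted line is the background level of 5.38. The y axes do not start at 0 and differ between panels. F4/80hi arrays at 12 weeks lie lowest of the brain arrays for Il6st, Il7r and Il17ra, and overlap those at 4 weeks for Il1rl2 and Il10rb.

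Of 5 microglial markers, 4 had a lower mean in the same arrays, among them P2ry12 (11.72 against 12.60 in naive microglia) and Sall1 (6.70 against 11.41), and Fcrls did not (11.81 against 11.78). The summed signal of the 5 was 13.28 to 13.57 in F4/80hi macrophages at 12 weeks and 14.15 to 14.42 in naive microglia, on the log2 scale, and all 5 markers were above background in both. Their part in the lower chains was not tested.

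Il1r2, in the IL-1 family, encodes a decoy receptor that binds IL-1 without signalling, and is known to be abundant on neutrophils. In naive microglia it lay below background at 4.91, 5.12, 4.85, 5.34 and 4.91. At 4 weeks the F4/80low arrays read 7.60, 8.55 and 5.83 and the F4/80hi arrays 8.26 and 5.62. At 12 weeks the F4/80low arrays read 5.49, 5.20 and 5.46, the F4/80hi arrays 5.31, 5.76 and 5.25, and the DTR arrays 5.38 and 5.18. At 4 weeks all 5 arrays were above the naive range, but within each population the arrays spread over more than 2 log2 units. The differences from naive were 2.30 for F4/80low (SE 0.46, limma adjusted p = 5.81e-03) and 1.90 for F4/80hi cells (SE 0.52, adjusted p = 0.0332). Taken as group means against the background level, these are at least 3.87-fold and at least 2.94-fold. Such bounds leave out the spread of the arrays, and the fitted 95% intervals start at 1.35 for F4/80low and 0.83 for F4/80hi cells (log2).

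The high arrays were those with the highest neutrophil signal among the brain arrays. The summed log2 signal of 9 neutrophil markers, among them S100a8, Ngp, Camp and Mmp8, was 8.60 to 8.97 in naive microglia, where 4 of 9 lay above background. It was 13.57, 13.35 and 10.40 in the F4/80low arrays and 13.55 and 10.62 in the F4/80hi arrays at 4 weeks, with 9 of 9 above background in either population. At 12 weeks and in DTR microglia it was at most 9.19. Ly6Chi monocyte markers also reached 10.51 in F4/80low and 10.55 in F4/80hi cells at 4 weeks, against at most 8.25 in naive microglia. Without the 3 arrays of highest neutrophil signal, an alternative chosen after seeing the data, Il1r2 stood 0.80 above naive in F4/80low (adjusted p = 0.160) and 0.58 in F4/80hi cells (adjusted p = 0.205), and neither was called. These are also the 3 brain arrays with the highest Il1r2, so a smaller difference without them was fixed by the choice. The F4/80low call was also lost without F4/80low replicate 2 (1.69, adjusted p = 0.0747). The call in F4/80hi macrophages ended when F4/80hi replicate 1 (0.58, adjusted p = 0.712), naive replicate 3 (1.84, adjusted p = 0.0693) or naive replicate 5 (1.86, adjusted p = 0.0750) was left out. Both were lost with the brain arrays alone and with the arrays of batch 2 alone, at the same differences. The part of neutrophils in the higher Il1r2 was not tested.

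From 4 to 12 weeks 0 chains were called within F4/80hi macrophages (limma; 6 with an unadjusted p under 0.05), where 0.171% of all rows were. Il1r2 differed by -1.48 (SE 0.66, adjusted p = 0.501), and passed without F4/80hi replicate 2 of 4 weeks (-2.80, adjusted p = 0.0394), which leaves the array rich in neutrophil transcripts to stand for that time.

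**Figure D3:**
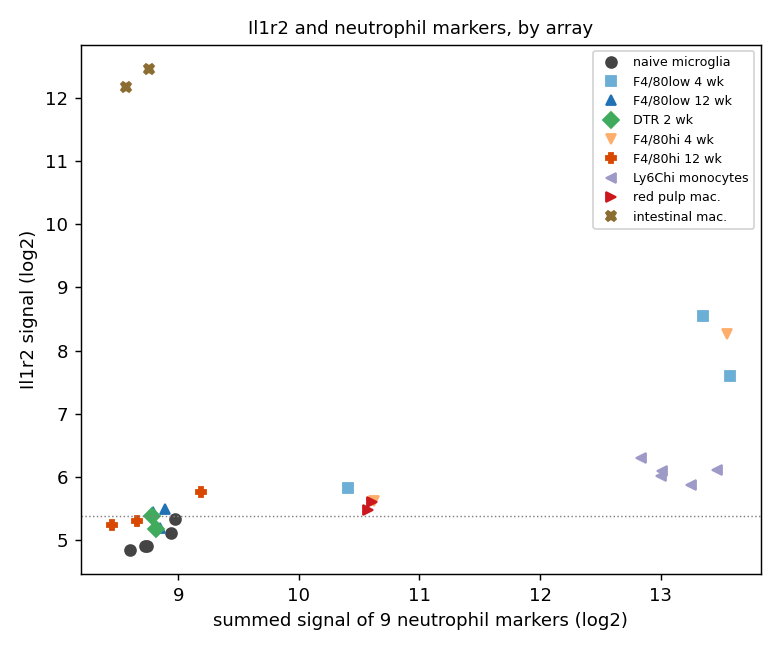
Each point is 1 of the 27 arrays, with the summed signal of 9 neutrophil markers on the x axis and Il1r2 on the y axis (both log2), coloured by group; the dotted line is the background level. The 3 arrays at 4 weeks with a marker sum above 13 have Il1r2 at 7.60 to 8.55, monocytes have marker sums of 12.84 to 13.47 with Il1r2 at 5.87 to 6.31, and intestinal macrophages have Il1r2 above 12 with a marker sum under 9.

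In monocytes Il1r2 read 6.11, 6.10, 6.01, 5.87 and 6.31, and in red pulp macrophages 5.60 and 5.48. Monocytes lay above naive microglia without overlap, by 1.06 (SE 0.38, limma adjusted p = 0.0338), at least 1.63-fold against background, and this call was lost when any of monocyte replicates 1, 2 or 5 or naive replicates 1, 2, 3 or 5 was left out (naive minus monocytes then -0.98 to -1.10, adjusted p = 0.0516 to 0.0974) and with the arrays of batch 2 alone (adjusted p = 0.402). The intestinal macrophages, at 12.46 and 12.17, stood far above all other arrays, by 7.28 over naive microglia (SE 0.52, adjusted p = 5.61e-11), or at least 122-fold, and by 6.77 over red pulp macrophages (SE 0.59, adjusted p = 3.83e-09). Neutrophil markers summed to 8.57 to 8.76 there, and 3 of 9 were above background.

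In DTR microglia Il3ra, the ligand-binding chain of the IL-3 receptor, was the chain that passed the adjusted p. Its arrays read 7.41 and 7.48, above the naive arrays at 6.49, 6.57, 6.84, 6.93 and 7.17, with a difference of 0.91 (SE 0.19, limma adjusted p = 0.0127) that did not reach 2-fold. The DTR arrays belong to batch 1, as do the naive arrays at 6.49 and 6.57. Il15ra, which presents IL-15 to neighbouring cells, read 8.56 and 8.14 in DTR microglia and 7.59 to 7.97 in naive microglia, a difference of 0.76 (SE 0.22, adjusted p = 0.119).

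Il12rb2, the signal chain of the IL-12 receptor, read slightly lower in every R26DTA group. The naive arrays read 6.03, 5.98, 6.02, 6.23 and 5.92 and the DTR arrays 6.21 and 6.03. The F4/80low arrays read 5.55, 5.58 and 5.79 at 4 weeks and 5.60, 5.32 and 5.52 at 12 weeks, and the F4/80hi arrays 5.63 and 5.21, then 5.42, 5.32 and 5.73. The arrays of depleted R26DTA brains all lay below the naive range, near background. The differences were between -0.63 and -0.41, with a limma adjusted p of 0.0487 for F4/80hi cells at 4 weeks and of 0.0828 to 0.486 in the other groups, and none reached 2-fold.

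Between microglia and cells from outside the brain many more chains differed. Of 37 chains, 5 were higher in naive microglia than in monocytes (13.5%, against 5.48% of all rows) and 5 lower (13.5%, against 9.15%). Against red pulp macrophages 6 were higher in naive microglia (16.2%, against 7.24% of all rows) and 3 lower (8.11%, against 8.51%). Against intestinal macrophages 4 were higher (10.8%, against 5.95%) and 6 lower (16.2%, against 7.09%). F4/80hi macrophages at 12 weeks exceeded monocytes in 6 chains (16.2%, against 4.64% of all rows) and were lower in 3 (8.11%, against 9.61%). The naive arrays are shared by the former 3 comparisons.

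**Figure D4:**
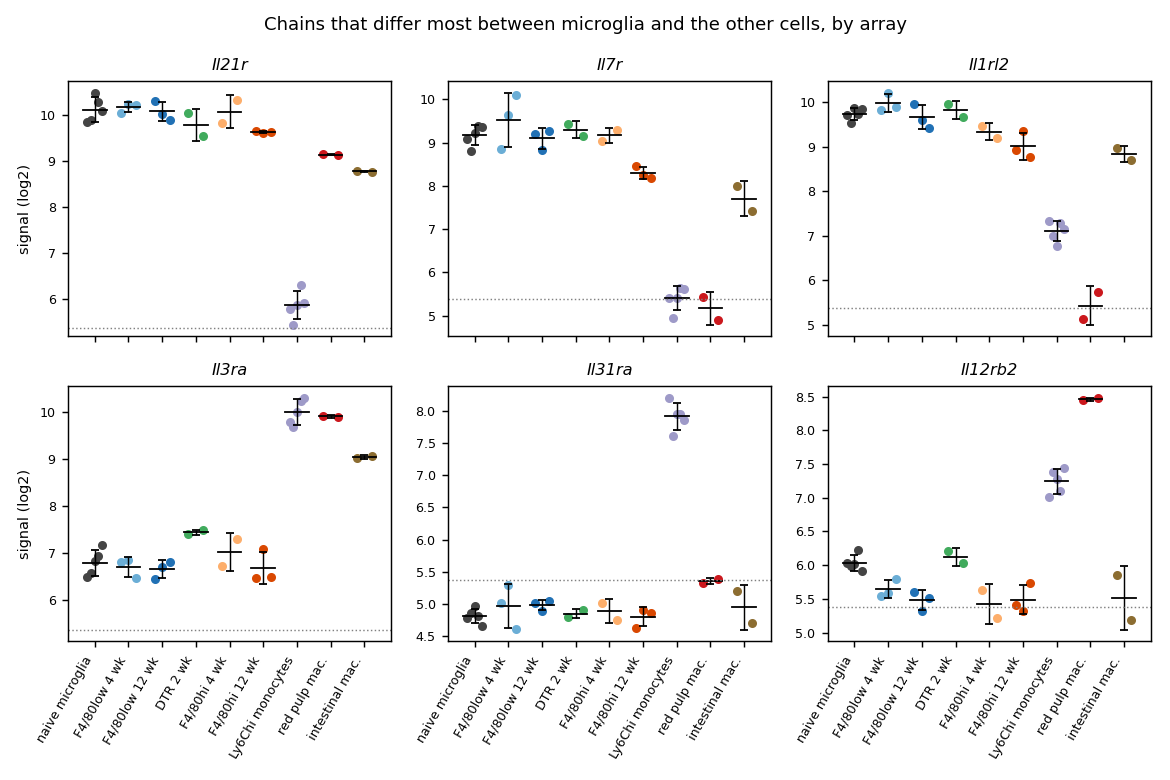
Points are single arrays of 6 chains (y axis, log2 signal) in the 9 groups (x axis), black bars are group means with SD and the dotted line is the background level of 5.38. The y axes do not start at 0 and differ between panels. Il21r, Il7r and Il1rl2 are high in all 6 brain groups, Il3ra in the 3 groups from outside the brain, Il31ra in monocytes and Il12rb2 in red pulp macrophages and monocytes.

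Of the common gamma chain family, Il21r and Il7r set brain cells apart from monocytes most. Il21r is the ligand-binding chain for IL-21, a product of helper T cells. The naive arrays read 9.85, 9.88, 10.48, 10.27 and 10.08, and the monocyte arrays 5.79, 5.45, 5.87, 6.30 and 5.93. The F4/80low arrays read 10.04, 10.23 and 10.21 at 4 weeks and 10.30, 10.01 and 9.89 at 12 weeks, the F4/80hi arrays 9.82 and 10.31 and then 9.65, 9.60 and 9.61, and the DTR arrays 10.03 and 9.54. All brain arrays lay within about 1 log2 unit, and more than 3 units above every monocyte array. Red pulp macrophages read 9.15 and 9.12 and intestinal macrophages 8.78 and 8.75, below all brain arrays. Naive microglia exceeded monocytes by 4.16 (SE 0.13, limma adjusted p = 4.00e-18), red pulp macrophages by 1.14 (SE 0.18, adjusted p = 1.41e-05) and intestinal macrophages by 1.51 (SE 0.18, adjusted p = 2.76e-07). F4/80hi macrophages at 12 weeks exceeded monocytes by 3.92 (SE 0.16, adjusted p = 9.36e-16). Without the batch term the difference from red pulp macrophages was 0.97, just short of 2-fold.

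Il7r binds IL-7, on which developing lymphocytes depend, and is known in fetal macrophage development. The naive arrays read 9.09, 8.81, 9.22, 9.38 and 9.36, the F4/80low arrays 8.86, 9.64 and 10.09 at 4 weeks and 9.19, 8.83 and 9.28 at 12 weeks. The F4/80hi arrays read 9.04 and 9.29 at 4 weeks and 8.45, 8.24 and 8.19 at 12 weeks, and the DTR arrays 9.44 and 9.15. Monocytes read 5.41, 4.95, 5.41, 5.64 and 5.61, red pulp macrophages 5.44 and 4.90, and intestinal macrophages 7.99 and 7.41. The brain arrays stood above all others, intestinal macrophages in between, red pulp macrophages at background, and monocytes, with a mean of 5.40, within their own spread of it. Naive microglia exceeded monocytes by 3.70 (SE 0.18, limma adjusted p = 1.71e-14), F4/80hi macrophages at 12 weeks exceeded them by 3.04 (SE 0.22, adjusted p = 4.47e-11), and naive microglia were at least 13.9-fold above red pulp macrophages (adjusted p = 2.00e-12). They exceeded intestinal macrophages by 1.62 (SE 0.25, adjusted p = 1.42e-05).

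Il2rb, shared by the receptors for IL-2 and IL-15 and best known from NK and T cells, lay below background in all brain groups. Its naive arrays read 4.69, 4.30, 4.72, 4.47 and 4.50, the F4/80low arrays 4.97, 5.09 and 4.68 at 4 weeks and 4.54, 4.47 and 4.79 at 12 weeks, the F4/80hi arrays 4.88 and 4.52 and then 4.63, 4.72 and 5.02, and the DTR arrays 4.54 and 4.79. Monocytes read 5.35, 5.36, 6.28, 5.49 and 5.98, red pulp macrophages 4.91 and 5.40, and intestinal macrophages 7.48 and 8.27. Intestinal macrophages were highest, without overlap with any other group. They were at least 5.64-fold above naive microglia (limma adjusted p = 1.58e-10). Monocytes were called higher than naive microglia by 1.17 (SE 0.18, adjusted p = 1.15e-05), but only at least 1.24-fold above background.

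Il4ra, which binds IL-4 and is shared with the IL-13 receptor, was above background in all cells, with group means from 9.94 in monocytes to 11.58 in intestinal macrophages. Naive microglia exceeded monocytes by 1.07 (SE 0.15, limma adjusted p = 1.44e-06) and F4/80hi macrophages exceeded them by 1.24 (SE 0.17, adjusted p = 3.50e-06). Red pulp lay below intestinal macrophages by 1.11 (SE 0.23, adjusted p = 7.05e-04). Il13ra1, its partner for IL-13 and IL-4, was 0.86 higher in naive microglia than in monocytes (SE 0.15, adjusted p = 7.00e-05), short of 2-fold. It was called with quantile normalization, at 1.20. Il2ra and Il9r lay near or below background throughout, with group means of at most 5.83 and 5.48.

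Il1rl2, the IL-36 receptor of the IL-1 family, was high in brain cells and low in red pulp macrophages. The naive arrays read 9.71, 9.54, 9.87, 9.74 and 9.85, the F4/80low arrays 9.83, 10.22 and 9.90 at 4 weeks and 9.96, 9.61 and 9.43 at 12 weeks. The F4/80hi arrays read 9.48 and 9.21 at 4 weeks and 8.93, 9.35 and 8.77 at 12 weeks, and the DTR arrays 9.96 and 9.68. Monocytes read 7.33, 7.00, 6.77, 7.28 and 7.16, red pulp macrophages 5.12 and 5.74, and intestinal macrophages 8.97 and 8.71. Brain arrays stood highest, with an overlap between F4/80hi cells at 12 weeks and intestinal macrophages, and red pulp macrophages stood lowest, with a mean of 5.43 that lay within their spread of the background level. Naive microglia exceeded monocytes by 2.60 (SE 0.15, limma adjusted p = 3.38e-13) and red pulp macrophages by 4.39 (SE 0.20, adjusted p = 2.20e-14). The difference from intestinal macrophages was 0.98 (SE 0.20, adjusted p = 5.64e-04), short of 2-fold, and it passed with quantile normalization (1.12), without intestinal replicate 1 (1.11) and without naive replicate 4 (1.01).

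Il1r1, the signalling receptor for IL-1, lies beside Il1rl2 in the genome. Its group mean was above background in red pulp macrophages only, at 7.20 and 6.84, while brain arrays reached at most 5.64 and intestinal macrophages read 4.87 and 4.92. Red pulp macrophages were at least 3.12-fold above naive microglia (limma adjusted p = 4.01e-08) and above intestinal macrophages (adjusted p = 9.80e-07). Gut and spleen macrophages stood in the opposite order for the decoy Il1r2. Il1rap, the accessory chain of the signalling receptors for IL-1, IL-33 and IL-36, was above background in all groups with means from 6.25 to 6.96, and was called in no comparison.

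Il3ra was high wherever cells came from outside the brain. Monocytes read 9.78, 9.67, 9.99, 10.23 and 10.29, red pulp macrophages 9.91 and 9.88, and intestinal macrophages 9.01 and 9.07. The F4/80low arrays read 6.81, 6.85 and 6.48 at 4 weeks and 6.45, 6.72 and 6.82 at 12 weeks, and the F4/80hi arrays 6.74 and 7.30 and then 6.49, 7.09 and 6.51. The highest brain array read 7.48, and the lowest array from outside the brain 9.01. Naive microglia were lower than monocytes (log2 difference -3.28, SE 0.13, limma adjusted p = 4.82e-16), than red pulp macrophages (-2.92, SE 0.18, adjusted p = 4.61e-12) and than intestinal macrophages (-2.06, SE 0.18, adjusted p = 2.52e-09). F4/80hi macrophages at 12 weeks, which the paper traces to Ly6Chi monocytes, lay near the microglial reading. They differed by 0.16 from naive microglia (95% interval -0.19 to 0.52) and by -3.12 from monocytes (SE 0.16, limma adjusted p = 9.30e-14). Of the partner chains outside the family name, the beta chains Csf2rb and Csf2rb2 were above background in every group. Their group means were 6.28 to 7.85 and 9.67 to 10.95. Csf2ra, the chain for GM-CSF, was higher in F4/80hi cells at 4 weeks than in naive microglia by 1.16 (SE 0.26, adjusted p = 7.07e-03).

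Il31ra, which pairs with the oncostatin M receptor to bind IL-31, was above background in monocytes only. The monocyte arrays read 8.20, 7.61, 7.95, 7.95 and 7.86, and the naive arrays 4.79, 4.87, 4.97, 4.81 and 4.66. The F4/80low arrays read 5.01, 5.29 and 4.61 at 4 weeks and 5.02, 4.90 and 5.04 at 12 weeks, the F4/80hi arrays 5.02 and 4.76 and then 4.63, 4.91 and 4.86, and the DTR arrays 4.80 and 4.90. Red pulp macrophages read 5.32 and 5.39 and intestinal macrophages 5.20 and 4.70, and the highest array outside the monocytes read 5.39. Monocytes were at least 5.80-fold above naive microglia (limma adjusted p = 1.81e-15) and above F4/80hi macrophages at 12 weeks (adjusted p = 1.13e-13). Osmr, which encodes the partner chain, lay below background in every group, with a mean of 4.74 in monocytes. The monocyte arrays also held neutrophil markers, 9 of 9 above background with sums of 12.84 to 13.47, B and plasma cell markers, 3 of 6 with sums of 10.78 to 11.17, and basophil or mast cell markers, 2 of 6, and the part of such cells in Il31ra was not tested.

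The IL-12 and IL-23 chains divided the macrophages of spleen and gut. Il12rb2 read 8.44 and 8.48 in red pulp macrophages, 7.01, 7.38, 7.28, 7.10 and 7.45 in monocytes, and 5.85 and 5.18 in intestinal macrophages. Red pulp macrophages stood above monocytes, and monocytes above all brain and intestinal arrays. Naive microglia were lower than red pulp macrophages (log2 difference -2.40, SE 0.18, limma adjusted p = 1.81e-10) and lower than monocytes (-1.22, SE 0.13, adjusted p = 5.54e-08), and red pulp exceeded intestinal macrophages by 2.94 (SE 0.21, adjusted p = 8.71e-11). The 12-week F4/80hi macrophages were lower than monocytes (-1.74, SE 0.16, adjusted p = 4.67e-09). Il12rb1, the chain common to the IL-12 and IL-23 receptors, was above background in intestinal macrophages only, at 6.63 and 6.84, while no other array passed 5. Il23r, the chain specific to IL-23, was likewise above background there alone, at 6.10 and 6.20, with all other arrays under 5. Intestinal macrophages were at least 2.55-fold above naive microglia in Il12rb1 (adjusted p = 1.70e-10) and at least 1.70-fold in Il23r (adjusted p = 6.07e-10).

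In the IL-10 and class II family, Il10ra, the ligand-binding chain for IL-10, was higher in microglia. Naive arrays read 10.95 to 11.15, monocytes 9.44 to 9.64, red pulp macrophages 9.51 and 9.62, and intestinal macrophages 10.14 and 10.14. Naive microglia exceeded monocytes by 1.49 (SE 0.10, limma adjusted p = 1.74e-11) and red pulp macrophages by 1.49 (SE 0.14, adjusted p = 9.33e-09), while the difference of 0.92 from intestinal macrophages fell short of 2-fold (SE 0.14, adjusted p = 1.70e-05) and passed with quantile normalization (1.16). F4/80hi macrophages at 12 weeks, at 10.82, 10.47 and 10.70, lay below the naive range and above monocytes by 1.14 (SE 0.13, adjusted p = 8.07e-08). They also exceeded monocytes in Il10rb, by 1.56 (SE 0.13, adjusted p = 5.86e-10). For naive microglia the Il10rb difference of 0.86 (SE 0.11, adjusted p = 4.03e-07) was under 2-fold and passed with quantile normalization.

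Il22ra2 encodes a soluble antagonist that binds IL-22. It lay below background in every group but 1, with the naive arrays at 4.36, 4.15, 4.41, 3.80 and 4.23, the F4/80low arrays at 3.99, 3.90 and 4.62 and then 4.24, 4.13 and 3.87, the F4/80hi arrays at 4.03 and 4.29 and then 4.04, 4.00 and 4.24, and the DTR arrays at 4.21 and 4.34. Monocytes read 4.01, 4.61, 4.92, 4.38 and 4.43 and red pulp macrophages 4.21 and 4.65. The intestinal arrays read 6.70 and 8.36, higher than all others but uneven, and were at least 4.45-fold above naive microglia (limma adjusted p = 4.90e-09). The membrane chains Il22ra1 and Il20ra lay below background in all groups, and Il20rb was above it in red pulp macrophages only, at a mean of 5.89.

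Among the IL-17 receptors, Il17ra was the chain clearly above background. Group means were 10.42 ± 0.29 (SD, n = 5) in naive microglia, 10.85 ± 0.13 (SD, n = 5) in monocytes, 8.91 ± 0.01 (SD, n = 2) in red pulp macrophages and 9.02 ± 0.53 (SD, n = 2) in intestinal macrophages. Naive microglia exceeded red pulp macrophages by 1.59 (SE 0.22, limma adjusted p = 3.24e-06) and intestinal macrophages by 1.48 (SE 0.22, adjusted p = 1.06e-05). Il17rb, Il17rc, Il17rd and Il17re had group means of at most 5.58.

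Between red pulp and intestinal macrophages 11 chains were called, 2 higher in red pulp macrophages (5.41%, against 5.19% of all rows) and 9 lower (24.3%, against 5.70%). The 2 were Il1r1 and Il12rb2, and the 9 were Il1r2, Il1rl2, Il22ra2, Il7r, Il2rb, Il23r, Il4ra, Il12rb1 and Il27ra. The call of Il27ra (-1.17, SE 0.28, limma adjusted p = 3.15e-03) was lost without red pulp replicate 2 (-0.83, adjusted p = 0.0936). Both intestinal arrays also held markers of other cells. B and plasma cell markers were above background in 6 of 6, summing to 13.62 and 13.71 against at most 8.93 in naive microglia, Ly6Chi monocyte markers in 5 of 6 (11.56 and 11.85), T cell markers in 3 of 5 (7.99 and 8.38), NK and innate lymphoid markers in 2 of 7 (8.38 and 8.69), dendritic cell markers in 4 of 5, and epithelial markers in 3 of 5 (8.37 and 8.67). Of the T cell genes, Cd2 (6.66), Cd3g (5.81) and Cd5 (5.72) were above background there and Cd3e (4.93) and Cd3d (5.08) below it. Cd5 was above background in all 9 groups and lowest in intestinal macrophages (6.32 in naive microglia), so it does not set these arrays apart. Some other counted markers were also above background in all 9 groups, among them the epithelial Krt8 and the dendritic Siglech, which was highest in naive microglia. In red pulp macrophages 7 of 9 neutrophil markers (10.57 and 10.61), 4 of 6 B and plasma cell markers (9.99 and 10.06) and 4 of 6 Ly6Chi monocyte markers (8.25 and 9.54) were above background. So were 1 of 7 NK and innate lymphoid markers (sums of 9.06 and 9.24), namely Klrk1 at a mean of 8.59, and the erythroid marker Klf1 (7.54 and 8.32). The part of these cells in Il2rb, Il12rb1, Il23r, Il22ra2 and the other chains was not tested.

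**Figure D5:**
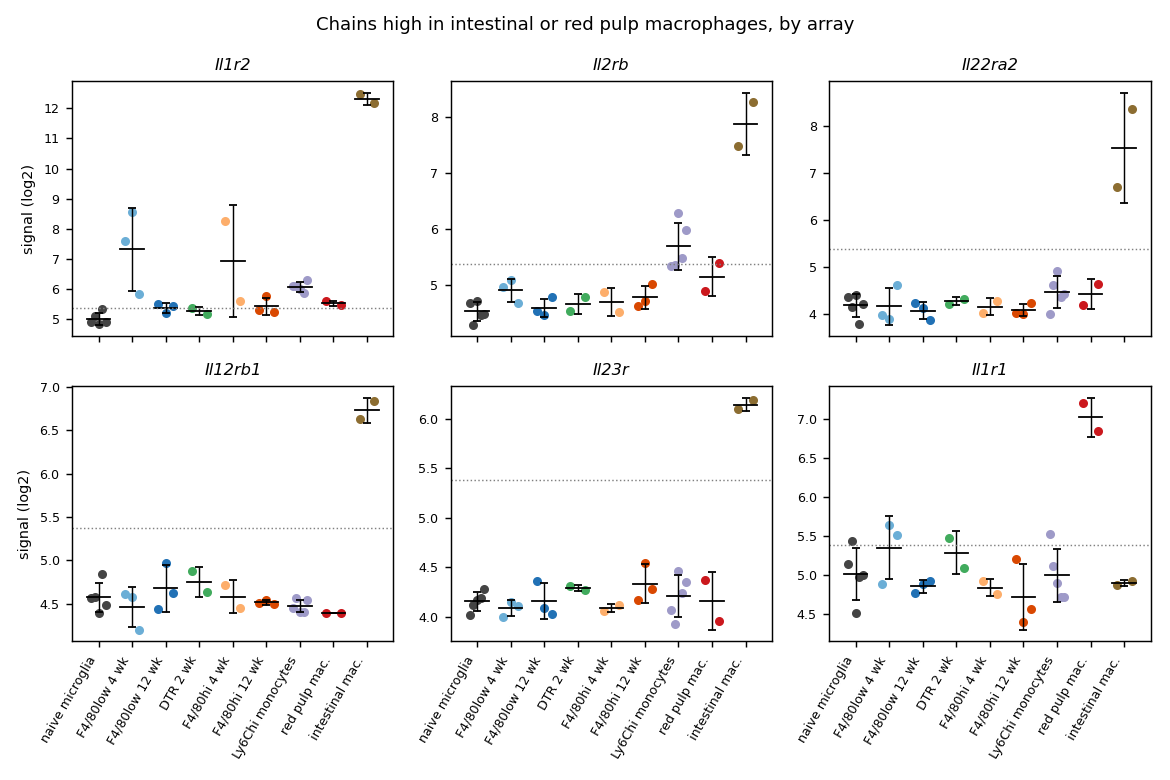
Points are single arrays of 6 chains (y axis, log2 signal) in the 9 groups (x axis), black bars are group means with SD and the dotted line is the background level of 5.38. The y axes do not start at 0 and differ between panels. Il1r2, Il2rb, Il22ra2, Il12rb1 and Il23r are highest in the 2 intestinal arrays, whose Il22ra2 values read 6.70 and 8.36, and Il1r1 is highest in the 2 red pulp arrays.

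The ligands, partners and signalling genes of these receptors were counted in 4 lists. Of 29 ligands and antagonists, 1 was called higher and 1 lower in F4/80hi macrophages at 12 weeks against naive microglia, where 1.34% of all rows were called higher and 1.65% lower. Il1b, which encodes the IL-1 beta cytokine, rose by 2.70 (SE 0.38, limma adjusted p = 2.70e-05) and Il6 fell from a mean of 6.48 to one of 4.50, below background, and so was at least 2.14-fold lower (adjusted p = 9.61e-04), while the chains Il1r1 and Il1rap were not called in that comparison. Il1b also rose at 4 weeks, in F4/80low (2.19) and F4/80hi cells (2.69), and in DTR microglia (2.38), and Il1rn, the soluble IL-1 antagonist, in 4-week F4/80hi cells (1.46) and DTR microglia (1.31). The 4-week arrays are those with raised neutrophil and monocyte markers, whose part in Il1b, Il1rn and Csf2ra was not tested, while neutrophil sums in DTR microglia were at most 8.82. In F4/80low microglia at 12 weeks 0 of the 29 were called by limma, beside 0.115% of all rows. Of 13 JAK-STAT genes 0 were called in F4/80hi macrophages at 12 weeks against naive microglia, and of 9 genes of IL-1 and IL-17 signalling 1 was, Irak3, a brake on IL-1 signalling, which rose by 1.34 (SE 0.19, adjusted p = 3.23e-05). Medians over these lists in that comparison were 0.14 for ligands, 0.19 for 9 partner chains, -0.21 for JAK-STAT genes and -0.12 for IL-1 and IL-17 signalling, beside 0.00 for all rows.

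Genes whose group means followed a chain most closely over the 9 groups were searched among 4890 rows, as a description. Il21r was followed by Cttnbp2nl (Pearson r = 0.993), F11r and Itgb5, and Il7r by Rin2 (r = 0.998), Ccdc88b and Fgd2. Il1rl2 was followed by Retreg1 (r = 0.995), P2ry6 and Pde3b, and Il10ra by Col15a1 (r = 0.997), Fgd2 and Prag1. Il31ra was followed by Mpo (r = 0.999), Vcan and Elane. Of these, Vcan is among the Ly6Chi monocyte markers used here, and Mpo and Elane encode granule proteins of neutrophil precursors. Il1r2 was followed by Actg2 (r = 0.982), Mmp9 and Cacna1e, and Il6st, less closely, by Itgb3 (r = 0.942), Klhl23 and Gng10. Il3ra was followed by Crybg1 (r = 0.993), Cox6b1 and Snrnp25. The 9 points are group means of the same 27 arrays, and 6 of them are brain groups.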

How the data were processed

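RNA of sorted cells was hybridized to Affymetrix Mouse Gene 2.1 ST arrays after amplification with the WT Pico kit, 1 array a sample and 27 in all. The authors deposited normalized log2 signals, made with Partek. Its version, the normalization, the background correction and the probe summary are not given in the sources used here. The difference between the 2 batches is the same in naive microglia and monocytes in every row, to within 0.000133. The deposited signals had therefore been processed with regard to batch, but the difference itself was not removed. For Il7r the naive arrays read 9.09 and 8.81 in batch 1 and 9.22, 9.38 and 9.36 in batch 2. Single readings compared across batches still hold this difference. Since the 2 groups cannot disagree on it, standard errors of the model may be too small. Of 41345 rows, 2145 were blank and 6955 held 0 in every array, and the remaining 32245 were tested. Genes were named from the platform annotation, through rows with a single symbol.

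Groups and batches came from the sample labels. Batch 1 held the 12-week and DTR groups, batch 2 the 4-week groups and the macrophages of spleen and gut, and naive microglia and monocytes lay in both. A linear model with a mean for each of 9 groups and a batch term was fitted in limma 3.58.1 (R 4.3.3) to all arrays, with 17 residual and 6.23 prior degrees of freedom. The Benjamini-Hochberg adjustment ran over every tested row, separately for 13 comparisons and for the difference between time points. Called rows have an adjusted p under 0.05 together with a change above 2-fold. The code was tested on simulated data. Where the mean of the dimmer group was at or below the background level and a difference was called, a lower bound is given, alone or beside the fitted difference: the brighter group's mean over the background level. This bound concerns group means and leaves out the spread of the arrays. Every array is listed for chains called within the brain and for those whose group means span more than 3 log2 units. Other chains were chosen freely. Marker lists hold known genes of each cell type, and their signals were summed on the linear scale. The chain family and the lists were taken up with earlier results of these data known, although membership of the family reads symbols only. Alternatives were no batch term, quantile normalization, a filter at the 40th percentile of mean signal, a variance trend with robust estimation, brain arrays only, arrays of 1 batch only, the row of lowest mean per gene, leaving out single arrays and a replicate block. The number of arrays limits the precision, with 2 in several groups.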

Additional observations from a re-analysis of the deposited data

Results flagged for a closer look

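In 4 of the 74 sets of 5 arrays examined, naive microglia and monocytes for each of the 37 chains, a single array stood far from the other 4 for its set's range. Chance marks about 1 such set in 20. Il2ra in naive replicate 1 read 5.19, below the nearest array at 5.37, and lies at the background level. Il15ra in naive replicate 5 read 7.97, above the nearest at 7.68. Il15ra in monocyte replicate 4 read 7.43, above the nearest at 7.18. Il20rb in naive replicate 3 read 5.38, above the nearest at 5.12, also at background. None of the 4 belongs to a called difference.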

How the results depend on the processing

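Counts of called chains stayed within 1.5 times of their value in 187 repeats under the alternatives and moved in 13, and calls of single chains were kept in 621 repeats, lost in 20 and reversed in 0. The counts that moved were those of 0 or 1. Against naive microglia at 4 weeks, the count of 1 in F4/80hi cells and that of 1 in F4/80low cells each became 0 with brain arrays only and with arrays of batch 2 only. Each ranged from 0 to 1 when single arrays were left out. Leaving out single arrays also gave 0 to 1 for the 12-week difference between F4/80hi and F4/80low cells and for the change of F4/80hi cells from 4 to 12 weeks. The replicate block gave 0 called chains between F4/80hi and F4/80low cells at either time, as did the fit without it. The labels share only a number: deviations of equal-numbered arrays correlated at -0.08, -0.10 and -0.06 at 12 weeks and at 0.28 and -0.00091 at 4 weeks. Apart from Il1r2, calls were lost for Il21r between naive microglia and red pulp macrophages without the batch term and for Il27ra between the macrophages of spleen and gut without red pulp replicate 2. A chain with a signal near 5 cannot show a fall. The batch term was fitted to signals whose batch difference was already equal in naive microglia and monocytes. Groups of 2 arrays borrowed the spread of the others.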
